A study of Homo sapiens with 2 samples.

Results

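The genes described here carry microRNAs from transcript to target: the Argonaute proteins AGO1, AGO2, AGO3 and AGO4, the TNRC6 scaffolds TNRC6A, TNRC6B and TNRC6C, the nucleases DROSHA and DICER1, and the export receptor XPO5. They were 10 genes of the 19740 named on the array, and were chosen for their place in the pathway, by the RefSeq accession that the array design gives to each probe. The Argonaute genes appear in older array designs as EIF2C1 to EIF2C4. They were represented by 15 probes, of which 14 stood well above background in every channel of the arrays. For 6 of the genes there was 1 probe, and for the other 4 there were several.

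The experiment asked how a raised supply of miR-424 changed the transcripts of RWPE-1, a noncancerous prostate epithelial cell line grown in keratinocyte serum-free medium. Cells received either Pre-miR-424, which is a precursor of this microRNA made by synthesis, or Negative control #1, each at 30 nM. Total RNA was amplified into antisense RNA and labelled with dyes for 2 two-colour Agilent arrays, with miR-424 RNA in Cy5 on the normal labelling and in Cy3 on the dye swap. The labels give no time after transfection and call the arrays technical replicates, so that they were counted as 1 replicate, and no p-value could be given. A value that agrees between the arrays has been repeated in labelling and hybridisation, but not in a separate transfection. RWPE-1 is a single established line, and the precursor supplies the microRNA from outside the cell.

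A microRNA gene is transcribed as a long primary transcript, from which the nuclear nuclease Drosha cuts a hairpin. Exportin-5, the product of XPO5, carries the hairpin to the cytoplasm, where Dicer trims it to a short duplex. An Argonaute protein then keeps a single strand as its guide, pairs its seed with messenger RNAs, and through TNRC6 proteins draws in the deadenylases and decapping enzymes that silence them.

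The sequences below are those of the cell's own miR-424, shown for its seed. They were taken from RefSeq (GRCh38.p14), and the sequence and form of the commercial precursor were not given in the sources used here. The MIR424 hairpin lies at chrX:134546614-134546711 on the minus strand and is 98 bases long. Its mature arms, at bases 11 to 32 and 48 to 68, are in capitals.
MIR424 hairpin: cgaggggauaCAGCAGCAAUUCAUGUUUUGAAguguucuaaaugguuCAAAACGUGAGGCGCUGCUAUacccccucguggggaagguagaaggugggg

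In the mature sequences the capitals mark the seed, bases 2 to 8 from the 5′ end. The 5p arm of miR-424 has the seed AGCAGCA, whereas the 3p arm has another.
hsa-miR-424-5p: cAGCAGCAauucauguuuugaa
hsa-miR-424-3p: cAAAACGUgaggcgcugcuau

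The seed of miR-424-5p was shared by 7 of the 2370 mature human microRNAs in the table used, miR-424-5p included. The other six are listed because any messenger RNA that pairs with this seed is open to them as well.
hsa-miR-15a-5p: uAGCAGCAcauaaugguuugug
hsa-miR-15b-5p: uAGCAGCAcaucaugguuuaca
hsa-miR-16-5p: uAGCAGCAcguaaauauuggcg
hsa-miR-195-5p: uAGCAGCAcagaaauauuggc
hsa-miR-497-5p: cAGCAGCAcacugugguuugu
hsa-miR-6838-5p: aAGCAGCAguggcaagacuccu

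Close relatives differ from it inside the seed. The microRNA miR-503, which is processed from the same host transcript as miR-424, ends its seed in another base, and miR-103a and miR-107 carry the same run of bases shifted by a single position.
hsa-miR-503-5p: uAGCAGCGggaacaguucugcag
hsa-miR-103a-3p: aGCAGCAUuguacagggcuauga
hsa-miR-107: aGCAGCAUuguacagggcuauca

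Whether the messenger RNAs of the Argonaute, TNRC6 and processing genes hold sites for this seed was not tested, since no transcript sequence was used here.

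Median spot signals were 165 to 189 in Cy3 and 290 to 314 in Cy5, over local backgrounds of 28 to 29 and 69 to 70. Of 42405 probes, 25664 were measured, that is, well above background throughout and free of outlier spots, and they stood for 13812 genes. The log2 ratios of pre-miR-424 over control had a Pearson correlation of 0.157 between the arrays across these probes, which are not independent replicates, and the error of a single array was 0.236 on this scale. All 4 basal prostate markers (KRT5, KRT14, TP63, ITGB4) and all 4 general epithelial markers (KRT8, KRT18, CDH1, EPCAM) were well above background. The luminal marker KLK3 was above background in no channel. Markers of fibroblasts and smooth muscle (4 of 5), endothelium (1 of 3) and immune cells (2 of 3) were also detected, each by at least 1 probe. For the immune marker PTPRC, 1 of 4 probes was well above background, and 3 were so in no channel. The part of these markers in the results was not tested.

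No gene of the machinery changed by 1.5-fold, the size used here as a call. At 1.5-fold or more on each array, with the same sign (a log2 ratio of 0.585), 0.849% of all measured probes were called, 0.421% higher and 0.429% lower with pre-miR-424, and none of the 14 machinery probes was among them. In the values reported here, neither array reached this size for any of these probes. The value farthest from 0 was 0.446 on the log2 scale, a 1.36-fold difference, for an XPO5 probe on 1 array. After median centring, the swap passed this size for AGO2 (−0.61) and for the second brightest XPO5 probe (−0.65), but the normal labelling did not.

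Below that size, the probes lay on the lower side more often than on the higher. Lower ratios on both arrays were found for 8 of the 14 probes (57.1%), against 26.4% of all measured probes. Higher ratios on both arrays were found for 2 probes (14.3%, against 25.0% of all), and 4 probes had opposite signs (28.6%, against 48.6% of all). Several of these probes measure the same gene. With each gene represented by its brightest measured probe, 5 genes were lower on both arrays (AGO2, TNRC6B, DROSHA, XPO5 and DICER1), 2 were higher (AGO1 and AGO4), and 3 had opposite signs (AGO3, TNRC6A and TNRC6C), where 26.7%, 26.8% and 46.5% of all measured genes did so. The median log2 ratio over the 10 genes was −0.07, against −0.0042 over all measured genes. This median came from the dye swap, on which it was −0.16, whereas on the normal labelling alone it was 0.0091. With each gene as the mean of its measured probes the median was −0.10.

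**Figure D1:**
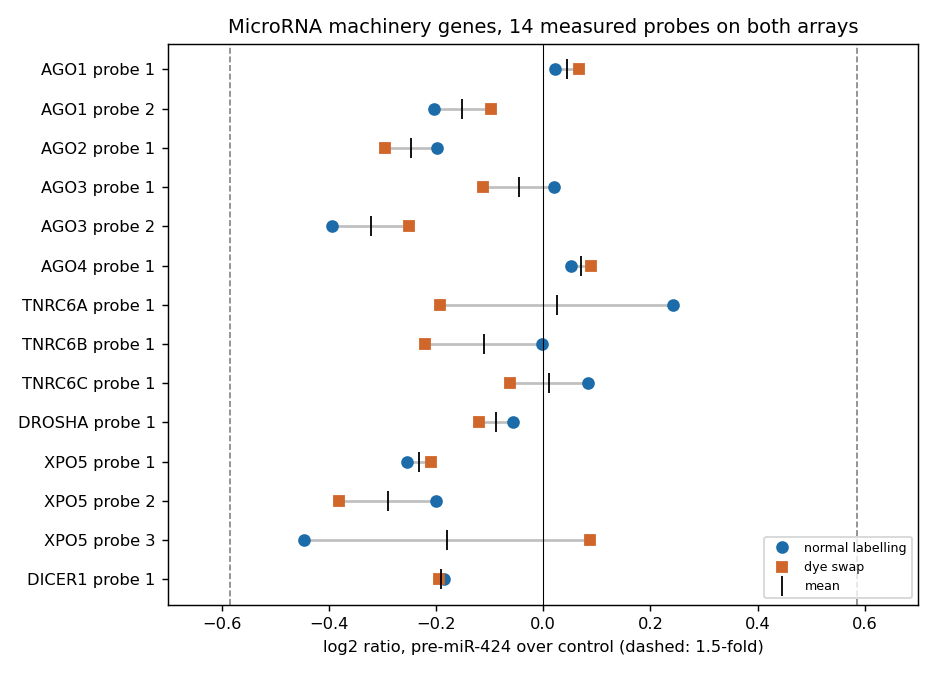
Log2 ratio of pre-miR-424 over control for the 14 measured probes of the Argonaute, TNRC6 and processing genes, with a circle for the normal labelling, a square for the dye swap and a bar for their mean. Probes are numbered from the brightest within a gene, and no point reaches the dashed lines at 1.5-fold (0.585).

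**Figure D2:**
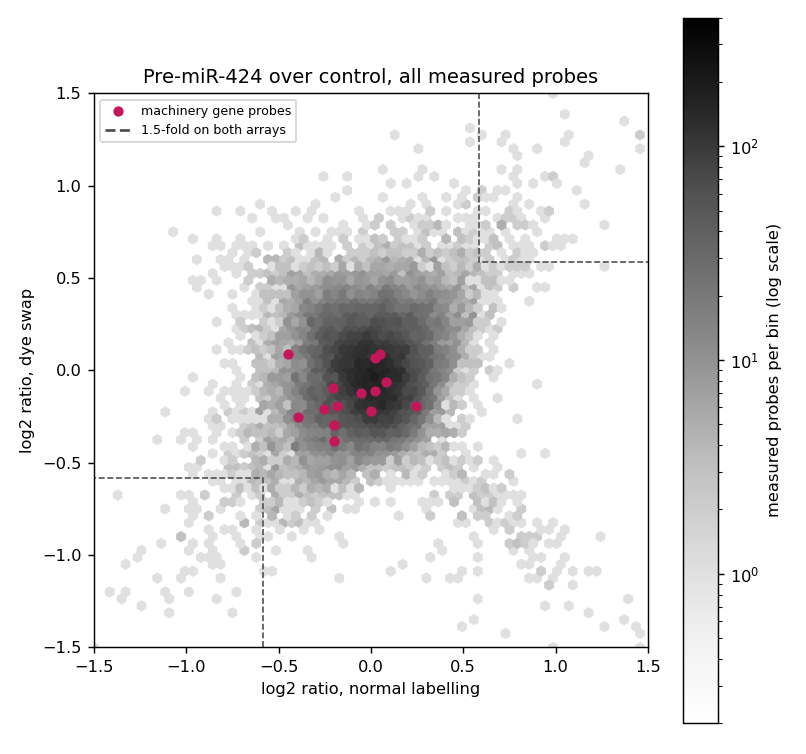
Log2 ratio on the normal labelling against that on the dye swap for all 25664 measured probes, as bins shaded by their number on a log scale, with the 14 machinery probes as coloured points. The dashed corners hold the probes called at 1.5-fold on both arrays, the coloured points lie within the dense centre and its lower left side, and 34 probes lie beyond the axes.

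Among the Argonaute proteins, AGO2 (NM_012154) is the one that cuts a fully paired target. Its mRNA was read by a single probe, printed as 10 spots on each array. The normalised log2 levels of AGO2 with pre-miR-424 were 12.62 on the normal labelling and 12.56 on the swap, and those with the control were 12.82 and 12.85. The control levels lay above the others on both arrays, without overlap. The log2 ratios were −0.20 and −0.30 (mean −0.25, SD 0.069 between the arrays, n = 2 arrays of 1 replicate), a ratio of 0.843 on the linear scale, and 7.33% of all measured probes had a lower mean ratio. Since total RNA of whole cultures was measured, fewer cells with a transcript and less of it per cell cannot be told apart, here and below.

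The repeated spots show the error within an array. On the normal labelling the 10 AGO2 spots had log2 ratios from −0.30 to −0.12, with a median of −0.19 and an SD of 0.059. On the swap they ran from −0.41 to −0.22, with a median of −0.28 and an SD of 0.064. All 10 spots were below 0 on each array, so the AGO2 ratio was larger than the spread among its spots. Spots of a probe share the labelled RNA and are not replicates of the transfection. The sign depended on the loess fit for 1 array: with each array centred on its median instead, the AGO2 ratios were 0.0036 and −0.61.

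**Figure D3:**
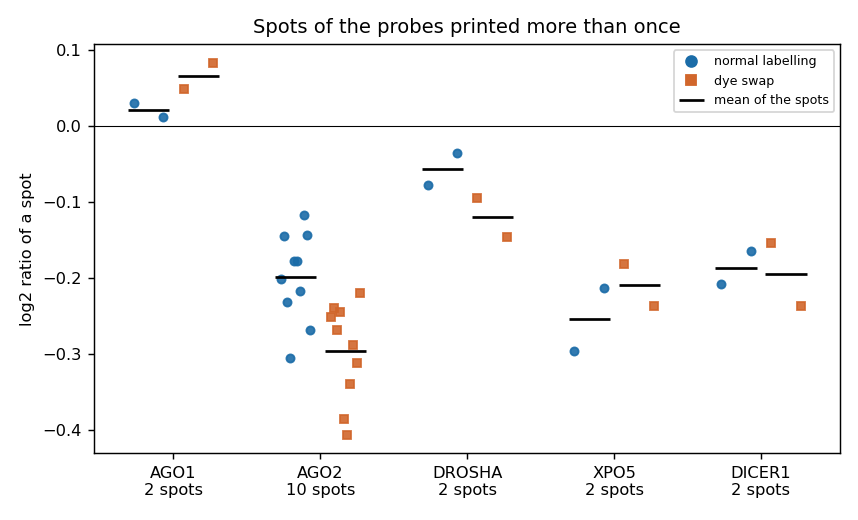
Log2 ratio of each spot for the probes printed more than once (AGO1, AGO2, DROSHA, XPO5 and DICER1), with circles for the normal labelling, squares for the dye swap and a line at the mean of the spots. All AGO2, DROSHA, XPO5 and DICER1 spots lie below 0 and all AGO1 spots above it.

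AGO1 binds guides without cutting their targets, and its probes disagreed. The brighter AGO1 probe (NM_012199), printed as 2 spots, had log2 levels of 12.41 and 12.40 with pre-miR-424 and of 12.39 and 12.33 with the control, in the order normal labelling and swap. The levels did not overlap, but they were nearly equal, and the log2 ratios were 0.02 and 0.07 (mean 0.04, SD 0.032), with a mean of −0.02 after median centring. The dimmer AGO1 probe gave levels of 7.44 and 7.48 against 7.64 and 7.58, and log2 ratios of −0.20 and −0.10 (mean −0.15, SD 0.075). The probes carry the same accession, so AGO1 had no single direction in these data. Averaged over both probes its log2 ratio was −0.05.

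The genes AGO4, AGO1 and AGO3 stand next to each other on chromosome 1. By their brightest probes AGO4 and AGO1 were higher on both arrays and AGO3 had opposite signs. Each of these ratios was smaller in size than the error of a single array (0.236). With each gene as the mean of its measured probes, AGO1 and AGO3 were below 0 and AGO4 above it. Whether the neighbours share a direction cannot be told from these values. AGO3 (NM_024852) also had a pair of probes. The brighter gave log2 levels of 9.97 and 9.72 with pre-miR-424 and of 9.95 and 9.83 with the control, which overlapped, and ratios of 0.02 and −0.11 (mean −0.05, SD 0.094). The dimmer gave levels of 9.08 and 9.20 against 9.47 and 9.45, without overlap. Its log2 ratios, −0.39 and −0.25, had the lowest mean of the 14 probes (−0.32, SD 0.10, 0.800 on the linear scale), and 4.10% of all measured probes had a lower one. The means of the AGO3 probes were 0.28 apart on the log2 scale, more than the SD between arrays of either, and averaged over both probes AGO3 had a log2 ratio of −0.18.

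AGO4 (NM_017629) was read by 1 dim probe, with log2 levels of 7.57 and 7.78 with pre-miR-424 and of 7.52 and 7.69 with the control. The level differed more between the arrays than between the conditions, and the groups overlapped. Its log2 ratios were 0.05 and 0.09 (mean 0.07, SD 0.027), and taken from the scanner software they gave a mean of 0.18. Over the 4 Argonaute genes the median log2 ratio was −0.0011 by their brightest probes, but −0.12 with each gene as the mean of its probes.

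The TNRC6 proteins connect Argonaute with the deadenylases, and none of them gave a ratio that held on both arrays beyond its spread. TNRC6A (NM_014494) had log2 levels of 10.57 and 10.23 with pre-miR-424 and of 10.33 and 10.42 with the control. The channel labelled with Cy5 was the higher on the normal labelling and on the swap alike. The ratios were therefore 0.24 and −0.19, with a mean of 0.02 and an SD of 0.31, and a component of 0.22 followed the dye. TNRC6B (NM_015088) had levels of 10.63 and 10.69 against 10.63 and 10.91, which overlapped. Its log2 ratio was −0.0021 on the normal labelling and −0.22 on the swap (mean −0.11, SD 0.15).

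TNRC6C (NM_001142640) had log2 levels of 9.49 and 9.41 with pre-miR-424 and of 9.40 and 9.47 with the control, which overlapped. The ratios were 0.08 and −0.06 (mean 0.01, SD 0.10). A further TNRC6C probe was not well above background in any channel, with raw signals of 62 to 110 over local backgrounds of 30 to 78.5, and no ratio is given for it. The median log2 ratio of the TNRC6 genes was 0.01, and it was 0.08 on the normal labelling and −0.19 on the swap.

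The nucleases and the export receptor were the group whose genes all had lower ratios on both arrays by their brightest probes (after median centring, XPO5 and DICER1 but not DROSHA), with a median log2 ratio of −0.19. On each of the arrays it lay at −0.19, which is the value of DICER1, the middle gene of the group. The differences were small, from −0.23 to −0.09 on the log2 scale, where the error of a single array was 0.236.

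DICER1 (NM_001195573), whose product cuts the hairpin in the cytoplasm, gave the closest repeat. Its log2 levels were 11.66 and 11.68 with pre-miR-424, and 11.84 and 11.87 with the control. The groups were apart on both arrays, and the ratios were −0.19 on each (mean −0.19, SD 0.0061, 0.876 on the linear scale). Of all measured probes, 11.8% had a lower mean ratio. The 2 DICER1 spots ran from −0.21 to −0.16 on the normal labelling and from −0.24 to −0.15 on the swap, a wider spread than that between the arrays. The SDs among its spots, 0.031 and 0.059, were larger than the SD between arrays. Median centring gave −0.03 and −0.48, both still below 0.

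XPO5 (NM_020750), the export receptor, was read by 3 probes, and all had a mean below 0. The brightest, with 2 spots, had log2 levels of 11.85 and 11.89 with pre-miR-424 and of 12.11 and 12.10 with the control. These did not overlap, and the ratios were −0.25 and −0.21 (mean −0.23, SD 0.032, 0.852 on the linear scale). The next probe had levels of 11.27 and 11.14 against 11.47 and 11.52, also apart, and ratios of −0.20 and −0.38 (mean −0.29, SD 0.13, 0.818 on the linear scale). The dimmest had levels of 9.63 and 10.01 against 10.07 and 9.93, which overlapped. Its ratios were −0.45 and 0.09 (mean −0.18, SD 0.38), and the component that followed the dye, −0.27, was larger in size than the mean. The means of the 3 probes lay within 0.11 of each other. From the brightest to the dimmest, 8.29%, 5.15% and 12.9% of all measured probes had a lower mean ratio.

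DROSHA (NM_013235), whose product makes the first cut in the nucleus, had log2 levels of 12.45 and 12.43 with pre-miR-424 and of 12.51 and 12.55 with the control. The groups did not overlap, although the gap was narrow. Its log2 ratios were −0.06 and −0.12 (mean −0.09, SD 0.045), and after median centring they had opposite signs, 0.13 and −0.43.

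Over all 14 probes the mean log2 ratio was larger in size than the SD between the arrays for 9. The share of all measured probes for which this holds was not computed, so this count is not read as a change. Levels with pre-miR-424 lay below those of the control without overlap for 7 probes of the 14, against 20.8% of all measured probes, and above them for 1, the brighter AGO1 probe (20.0% of all). Each of the 14 means was smaller in size than that of CCNE1 (NM_001238), the cyclin E1 gene and a known target of microRNAs with this seed, at −0.77 on the log2 scale (−0.62 and −0.92).

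The choice of processing moved some genes across 0. Under 11 alternatives, which include each array alone, AGO2, AGO4, TNRC6B, DROSHA, XPO5 and DICER1 kept the sign of their mean. Not all of these were separate checks, since the other filters left the value of every gene unchanged. The mean of all probes differed only for genes with several measured probes. The authors' ratios were nearly those reported (−0.2465 against −0.2463 for AGO2). The mean of AGO2 ranged from −0.31 to −0.20, that of XPO5 from −0.29 to −0.21, and that of DICER1 from −0.25 to −0.18. AGO1, AGO3, TNRC6A and TNRC6C changed sign under at least 1 alternative, and their reported means were 0.05 or less in size. Of 6 sets of starting values (those reported, a smaller offset, no background correction, median centring, and the ratios of the scanner software and of the authors), DICER1, the 2 brighter XPO5 probes and the dimmer probes of AGO1 and AGO3 were lower on both arrays in all 6, and AGO2, DROSHA and TNRC6B in 5, the exception being median centring.

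**Figure D4:**
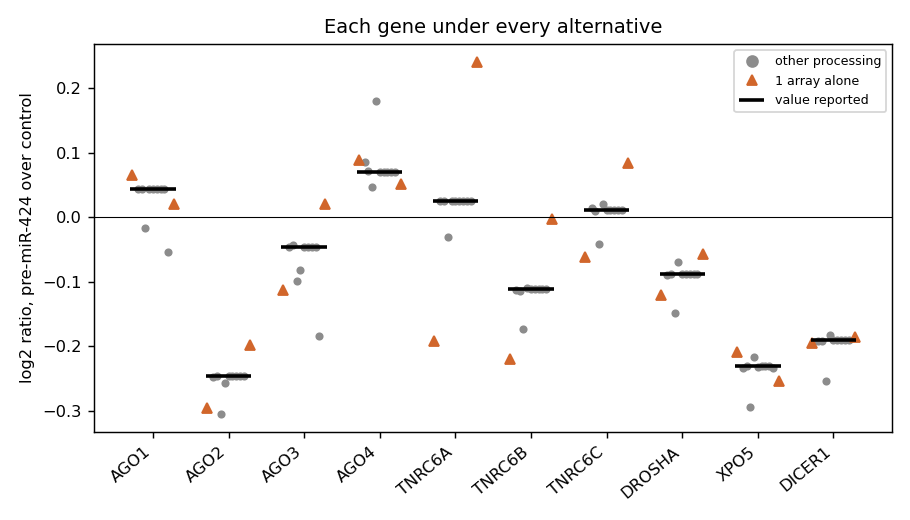
Log2 ratio of each gene by its brightest probe, with a line for the mean reported, dots for the other ways of processing and triangles for each array alone. The dots include the mean over all measured probes of a gene. The points of AGO2, XPO5 and DICER1 lie between −0.31 and −0.18, whereas those of TNRC6A run from −0.19 to 0.24.

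The other genes of the pathway were taken from 7 lists of 70 genes. No gene of these lists was called at 1.5-fold on both arrays, against 1.01% of all measured genes (0.623% higher and 0.391% lower). Of the 64 that were measured, 18 were lower on both arrays, 15 were higher on both and 31 had opposite signs, and their median log2 ratio was −0.0016. The shares of all measured genes were 26.7%, 26.8% and 46.5%, so that the lists as a whole were close to the array.

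Before the Argonaute proteins, the 5 cofactors of Drosha had a median log2 ratio of −0.03, with 1 gene lower on both arrays. The 3 further export and import genes all had opposite signs. Of 11 Dicer partners and chaperones that load Argonaute, 2 were lower on both arrays and none was higher. The lower of these was TARBP2 (NM_134323), a partner of Dicer that binds double-stranded RNA, with log2 ratios of −0.32 and −0.58 (mean −0.45, SD 0.18).

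Around Argonaute, the 13 partners and helicases were evenly divided, with 5 lower on both arrays and 5 higher. ANKRD52 (NM_173595), a subunit of the phosphatase that acts on Argonaute, had log2 ratios of −0.41 and −0.70 (mean −0.56, SD 0.20). It passed 1.5-fold on the swap only. FMR1 (NM_002024), an RNA-binding protein, had ratios of 0.21 and 0.17 by its brighter probe (mean 0.19, SD 0.025), and −0.20 and 0.23 by the other. WTIP (NM_001080436), a LIM protein, had ratios of 0.12 and 0.25 (mean 0.19, SD 0.093).

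Among 13 measured genes of deadenylation, 6 were lower on both arrays and 2 were higher. BTG2 (NM_006763), an antiproliferative protein that binds the CCR4-NOT deadenylase, had the lowest mean of all the lists, −0.62 (SD 0.17), with log2 ratios of −0.50 and −0.74. It passed 1.5-fold on the swap and in the mean of the arrays, but not on the normal labelling. Its relative TOB1 (NM_005749) lay on the other side, with ratios of 0.25 and 0.28 (mean 0.26, SD 0.020).

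Of 12 genes of decapping, decay and translational repression, 3 were lower on both arrays and 6 were higher. The decapping enzyme DCP2 (NM_152624) had log2 ratios of −0.45 and −0.32 (mean −0.39, SD 0.090), and its partner EDC3 (NM_025083) had −0.21 and −0.52 (mean −0.37, SD 0.22). LSM14A (NM_015578), a component of P-bodies, had the highest mean of the lists, with ratios of 0.42 and 0.38 (mean 0.40, SD 0.027). The exonuclease XRN1 (NM_019001) had ratios of 0.06 and 0.33 (mean 0.20, SD 0.19). Of 7 measured genes of microRNA tailing and turnover, 1 was lower on both arrays and 2 were higher.

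**Figure D5:**
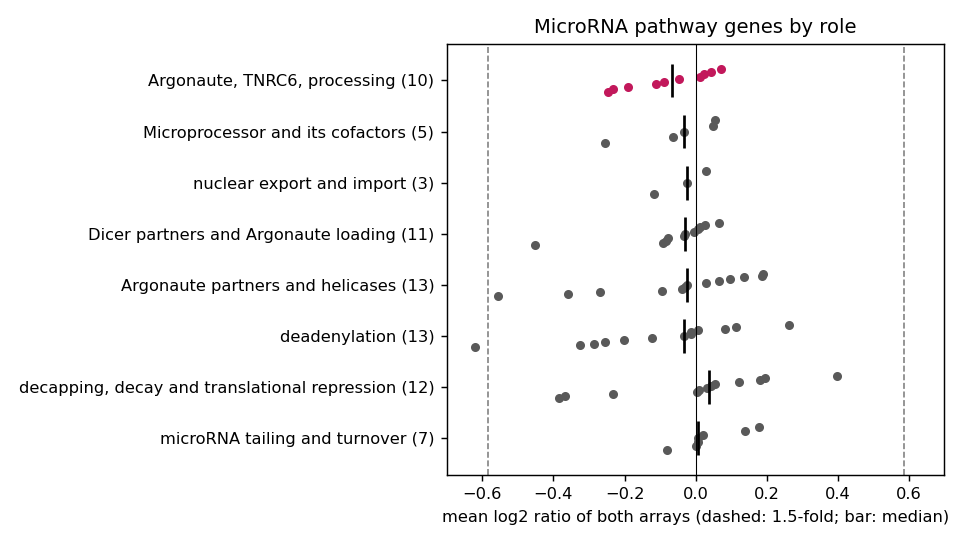
Mean log2 ratio of both arrays for each measured gene, by role in the microRNA pathway, with the number of genes in parentheses and a bar at the median of each group. The group medians lie near 0, and the only point beyond the dashed lines at 1.5-fold is BTG2 at −0.62.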

How the data were processed

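RNA of RWPE-1 cells with pre-miR-424 or control precursor was compared on 2 two-colour arrays, grouped by the sample labels. Per the file headers, the authors' scanner software was Feature Extraction 10.7.3.1. The deposited scanner files give the median intensity of each spot and of its local background per channel, not normalized, and the software's own log10 ratio. A table of log2 ratios was deposited by the authors too (the labels name limma). Its columns, with medians of 0.0236 and 0.0355, correlated with the values computed here at 0.991 and 0.988 as Cy5 over Cy3, with the swap left unturned. All its columns of values belonged to these arrays. How that table was made is not given in the sources used here.

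With limma 3.58.1 (R 4.3.3), median intensities were background-corrected by normexp (offset 50), which draws ratios of dim probes towards 0. Control spots were left out, loess was fitted within each array, spots of a probe were averaged, and ratios were turned to pre-miR-424 over control. Aquantile scaling served for levels only. Probes with an outlier spot (500) were left out. RefSeq accessions were given for 27134 probes, and 25771 of them (95%) were found in a RefSeq table (GRCh38.p14), used for names and neighbours only. SDs are between the arrays. The number of arrays limits the precision. Python 3.11.15 (pandas 2.3.3, numpy 2.4.6, matplotlib 3.10.9) was used, and the steps were tested on simulated data.

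The 10 genes and the pathway lists, which come from general knowledge, were chosen with earlier results of these data known. All 10 genes with all probes are named, and of the lists any gene called and the 5 highest and 5 lowest means. CCNE1 was added for scale. Some markers of luminal cells are not reported here. Alternatives were other background corrections, median centring, the scanner's and the authors' ratios, other filters and thresholds, single arrays, and averages of all probes of a gene. The count of probes lower on both arrays, and the Argonaute median over all probes, were examined under them after the values were seen.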

Additional observations from a re-analysis of the deposited data

How the results depend on the processing

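No machinery probe was called at 1.5-fold under any of the 12 alternatives run for probes, 2-fold included. The pathway lists, with 0 genes called, gave 0 to 2 with each array alone (ANKRD52 and BTG2 on the swap), and 1 (BTG2) at 1.5-fold on the mean of both arrays. The median of the 10 genes ranged from −0.16 on the swap alone to 0.0091 on the normal labelling alone, and was −0.10 over all probes of a gene and −0.12 with median centring, under which all measured probes had medians of 0.10 (normal labelling) and −0.18 (swap). Of 110 values of single genes, 8 moved by more than the SD between the arrays and 7 changed sign. Many of these values could not move. An array alone always lies closer to the mean of both than this SD, so it could change sign but not count as moved. The other filters returned the reported value for every gene and added to neither count. AGO1 was −0.02 with median centring and −0.05 over all its probes. AGO3 was 0.02 on the normal labelling alone and −0.18 over all its probes. TNRC6A was −0.03 with median centring and −0.19 on the swap alone, and TNRC6C −0.04 and −0.06. The number of probes lower on both arrays ranged from 6 (median centring, against 21.2% of all measured probes) to 10 (scanner software's ratios, against 26.0%). The cause was not tested. No paired analysis was possible because the arrays are technical replicates of 1 comparison, and each ratio is already taken within an array. Dim probes limit the values of AGO4 and of the dimmer AGO1 probe.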

Other observations

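The genes that host microRNAs of the same or a shifted seed were looked up after the other values had been seen. MIR503HG (NR_024607), from which miR-424 and miR-503 are processed, had log2 ratios of −0.02 and −0.18 (mean −0.10, SD 0.11), on the normal labelling and the swap. SMC4 (NM_005496), host of miR-15b and a copy of miR-16, had −0.25 and −0.03 (mean −0.14, SD 0.16). Hosts of miR-103a had −0.04 and −0.35 (PANK3, NM_024594, SD 0.22) and −0.13 and −0.22 (PANK2, NM_153638, SD 0.068), and PANK1 (NM_148977), host of miR-107, had 0.07 and −0.07 (SD 0.096). None was called at 1.5-fold, and only PANK2 had a mean larger than its SD. SMC4 and PANK3 had 2 probes each, of which the brighter is given. DLEU2, host of miR-15a and miR-16-1, and MIR497HG, host of miR-497 and miR-195, had no probe under these names.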
